A study of Saccharomyces cerevisiae with 4 samples.

Results

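LSO1 and LSO2 are a pair of paralogous yeast genes for short proteins, and their transcripts were followed in growing cells of Saccharomyces cerevisiae exposed to CG-1521, an inhibitor of histone deacetylases. The pair makes up 2 of the 5449 genes measured. LSO1 (YJR005C-A, chromosome X) was chosen because it had the largest rise of all genes with CG-1521, so its own change is described here without a test. LSO2 (YGR169C-A, chromosome VII) was taken as its paralog, whatever its value, and its change was tested. Both genes were found by symbol and locus tag, each has 1 probeset on the Affymetrix array, and neither probeset name has the suffix for probes that match other sequences too.

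LSO1 and LSO2 were named as late-annotated short open reading frames. LSO1 has been described as a target of Aft1, the transcription factor that switches on iron uptake genes when iron is short, and as a gene that helps cells grow in low iron. Lso2 binds ribosomes and is known for its part in restarting translation after starvation, a role it shares with its human relative CCDC124.

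The strain was BY4741, a haploid a-mating laboratory line with deletions in HIS3, LEU2, MET17 and URA3, and all 4 cultures carried these deletions. Cultures grew exponentially in YPD, a rich glucose medium. The 2 control cultures were given vehicle and the 2 treated cultures CG-1521 at 50 μM, each for 1 h and with 1 array per culture, and the labels describe independent biological replicates. Values are log2 values from RMA, in which background is subtracted, arrays are brought to a common distribution and the probes of a probeset are summarised. Each probeset has its own sensitivity, so levels are compared between arrays of 1 gene and not between genes.

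Array medians over all genes lay between 9.82 and 9.89. Background, set as the 95th percentile of 1746 probesets for another yeast species, lay between 2.42 and 2.45. URA3 and MET17 were at or below background on all 4 arrays, LEU2 lay between 2.08 and 3.09, and HIS3, which carries only a partial deletion in this strain, lay between 10.21 and 10.91. LEU2, though deleted, passed the threshold of 0.05 used below as higher with CG-1521 (difference 0.68, limma adjusted p = 0.0488). A call on a gene near background is therefore to be read with care. The a-cell markers MFA1, MFA2, STE2, STE6 and BAR1 lay between 10.81 and 12.26. Of the alpha-cell markers, MF(ALPHA)2 (9.20 to 9.59), SAG1 (7.62 to 7.86), STE3 (4.63 to 5.17) and MF(ALPHA)1 (2.73 to 3.79) all had signal above background. The 9 hybridization spike probesets had a median of 11.48 and 11.88 on the control arrays and 12.31 and 12.05 on the CG-1521 arrays. Their part in the results was not tested. The labels name no batch.

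LSO1 stood low in both control cultures and high in both treated cultures. Its log2 value was 5.64 in control replicate 1, 6.18 in control replicate 2, 11.28 in CG-1521 replicate 1 and 10.97 in CG-1521 replicate 2. All 4 values were above background, by 3.20 and 3.74 in the controls and by 8.84 and 8.55 with CG-1521. On each array 5441 to 5443 of the 5449 genes were above it, so passing it does not show that a gene is expressed. The groups did not overlap, and the lower treated array lay 4.78 above the higher control array. Both treated arrays exceeded both controls for 31.4% of all genes, and the groups did not overlap, in either direction, for 72.3%.

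The LSO1 mean went from 5.91 ± 0.39 to 11.12 ± 0.22 (SD, n = 2 each), a log2 difference of 5.21 or 37.0-fold. Any pairing of a treated with a control array gave a difference between 4.78 and 5.64. The controls were unusually far apart: their gap of 0.55 was reached or exceeded by 2.84% of all genes, against a median gap of 0.11. The treated arrays differed by 0.31, a gap that 27.6% of genes reached.

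**Figure D1:**
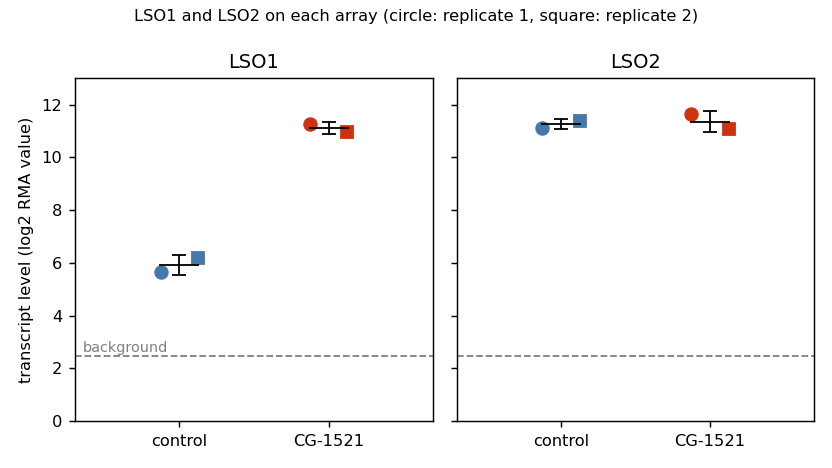
Log2 RMA values of LSO1 (left) and LSO2 (right) on each array, by group, with circles for replicate 1, squares for replicate 2, and the mean and SD of each group in black (n = 2). LSO1 sits at 5.64 and 6.18 in the controls and at 11.28 and 10.97 with CG-1521, while the LSO2 groups overlap, and the heights of the 2 genes are not compared because each probeset has its own sensitivity.

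LSO2 showed no rise of that kind. Its log2 value was 11.12 in control replicate 1, 11.40 in control replicate 2, 11.63 in CG-1521 replicate 1 and 11.08 in CG-1521 replicate 2. The treated arrays held both the highest and the lowest of the 4 values, so the groups overlapped. Between same-numbered arrays LSO2 was higher with CG-1521 by 0.51 in replicate 1 and lower in replicate 2, with a difference of -0.31. The 2 pairs of arrays pointed in opposite directions for 22.9% of all genes.

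The LSO2 mean was 11.26 ± 0.19 in control and 11.36 ± 0.39 with CG-1521 (SD, n = 2 each), a log2 difference of 0.10 (SE 0.22, limma adjusted p = 0.754). The 95% interval of that difference ran from -0.48 to 0.68, or from 0.715-fold to 1.60-fold. With 4 arrays a change within that interval cannot be told from no change. Without CG-1521 replicate 1 the difference was -0.18, without CG-1521 replicate 2 it was 0.37, and without control replicate 1 it was -0.04, with LSO2 called in none of these fits (limma adjusted p = 0.440, 0.136 and 0.939). The interval ends below the LSO1 rise, but that rise was chosen as the largest of all genes, so this is no test of the pair. Of all genes, 83.4% had a larger absolute difference than LSO2, and 9.74% had treated arrays at least as far apart. The LSO1 difference exceeded the LSO2 difference by 5.11 on the log2 scale, which is given without a test because LSO1 was chosen by its rise.

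The next largest rise after LSO1 was that of MPC3, a subunit of the mitochondrial pyruvate carrier, with a difference of 3.99. Its treated arrays lay at 12.36 and 10.40, and the lower of them exceeded the higher control by 2.83. FIT1, a cell wall mannoprotein that holds siderophore-bound iron, came next with 3.70, and its lower treated array exceeded its higher control by 3.39. LSO1 ranked first of the 5449 genes on that separation, which comes from the same values that chose it and adds no support.

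**Figure D2:**
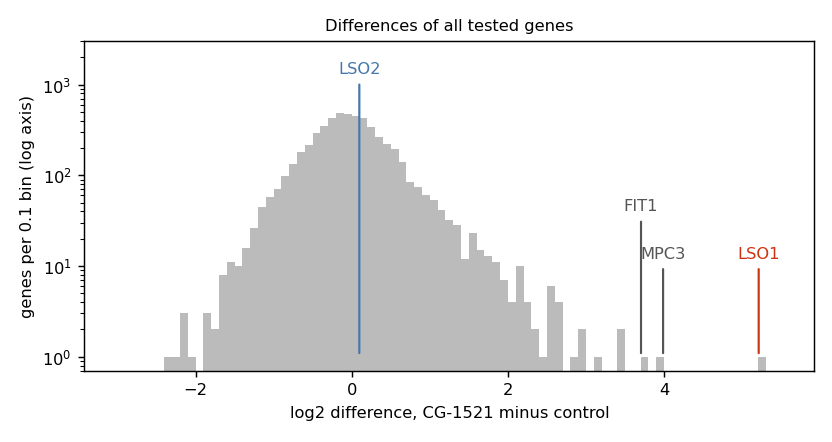
Histogram of the log2 differences (CG-1521 minus control) of all 5449 genes, with the number of genes per bin on a log axis. LSO1 stands alone at 5.21, beyond MPC3 at 3.99 and FIT1 at 3.70, and LSO2 lies at 0.10 within the bulk.

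Many but not all iron-regulated genes rose beside LSO1. Each rose by less, which follows from choosing LSO1 as the largest rise. In a list of 33 other genes of the Aft1/Aft2 iron regulon, 19 were called higher, 2 lower and 12 were not called, at a limma adjusted p under 0.05. Over all genes, 12.9% were called higher and 16.8% lower. The list's median difference was 0.92, against -0.04 over all genes, and 15 of its genes rose by at least 1 on the log2 scale. This contrast also chose LSO1, so the count describes its company and adds no support to its rise.

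FIT1 went from 6.87 and 7.04 in the controls to 10.43 and 10.88 with CG-1521, the largest rise of the list. HMX1, the heme oxygenase that recovers iron from heme, went from 8.22 and 8.26 to 10.87 and 10.83, a difference of 2.61 (SE 0.10, limma adjusted p = 0.00676). Both treated arrays lay far above both controls for each of them. The other mannoproteins of the FIT group, FIT2 and FIT3, both rose by 2.51, and FRE5, a member of the ferric reductase family, rose by 2.42. ECM4, a glutathione transferase, rose by 2.27. The members called lower were SMF3, which exports metal from the vacuole (-0.54, SE 0.11), and FRE4, another reductase (-0.47, SE 0.11). The 12 members not called included FET3 (0.48, limma adjusted p = 0.0620) and FTR1 (0.47, limma adjusted p = 0.136). The others were ISU1 (0.56), PRY1 (0.42), ATG41 (0.40), FRE6 (0.30), ATX1 (0.21), VHT1 (0.19), PCL5 (0.08), FET4 (0.01), TIS11 (-0.14) and FRE1 (-0.16). With either control array left out, calls dropped steeply over all genes, and fewer members of this list were called higher. A call lost in those fits is therefore not particular to the list. FRE4 lost its call with any 1 array left out, and SMF3 with any but CG-1521 replicate 2. Over the left-out arrays the difference ran from -0.62 to -0.46 for SMF3 and from -0.55 to -0.39 for FRE4. With all features fitted together SMF3 and FRE4 also lost the call (limma adjusted p = 0.0651 for SMF3 and 0.0832 for FRE4).

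The regulators above these genes differed by less than 1 on the log2 scale. AFT1 lay at 10.63 and 10.62 in the controls and at 10.95 and 10.94 with CG-1521. The groups did not overlap, but the difference of 0.32 (SE 0.09, limma adjusted p = 0.0612) was not called. With an intensity trend in the variance model AFT1 was called higher (limma adjusted p = 0.0344). AFT2, its paralog, was at 8.89 and 9.07 in the controls and at 8.47 and 8.93 with CG-1521, a difference of -0.28 (SE 0.19, limma adjusted p = 0.299). With CG-1521 its 2 arrays lay on either side of the lower control. Without CG-1521 replicate 2 AFT2 was called lower, with a difference of -0.51 (limma adjusted p = 0.0450).

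Among partners that relay iron status to Aft1, BOL2 rose by 0.94 (SE 0.22) and the glutaredoxin GRX4 fell by 0.84 (SE 0.19). GRX3, the other glutaredoxin, had a difference of 0.01 (SE 0.13, limma adjusted p = 0.946). YAP5, a transcription factor that acts when iron is in excess, rose by 0.57 (SE 0.11), from 6.75 and 6.93 to 7.42 and 7.41. In all 2 of these 6 regulators were called higher and 1 lower, against 12.9% and 16.8% of all genes. The 6 genes are too few to read these counts as a result. The calls for YAP5, BOL2 and GRX4 were lost when either control array was left out, as were most calls over all genes. That of YAP5 was also lost without CG-1521 replicate 1 (difference 0.565) and with an intensity trend (limma adjusted p = 0.0591). With all features of the table fitted together none of the 3 was called (limma adjusted p = 0.0606 for YAP5, 0.0824 for BOL2 and 0.0790 for GRX4).

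**Figure D3:**
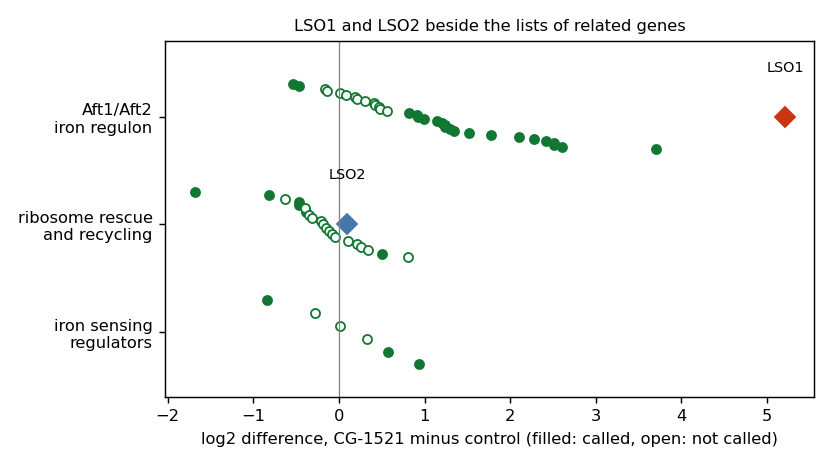
Log2 differences (CG-1521 minus control) of the genes of 3 lists, 1 circle per gene, filled where called at a limma adjusted p under 0.05 and open where not, with LSO1 and LSO2 as diamonds beside the list of their known function. LSO1 at 5.21 lies beyond the highest of the 33 iron regulon genes, FIT1 at 3.70, and LSO2 at 0.10 lies among the 21 ribosome genes, which run from -1.68 to 0.81.

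LSO2 was set beside 21 genes that act on stalled, idle or terminating ribosomes. Of these, 1 was called higher, 5 lower and 15 were not called, so that 28.6% were called in either direction, against 29.7% of all genes. By direction, 4.76% of the list were higher against 12.9% of all genes, and 5 of the 21 were lower against 16.8% of all genes. The list's median difference was -0.19. RLI1, the iron-sulfur ATPase that splits ribosomes after termination, went from 9.67 and 9.80 in the controls to 7.72 and 8.38 with CG-1521, a fall of 1.68 (SE 0.24, limma adjusted p = 0.0143). HEL2, the ubiquitin ligase that detects collided ribosomes, fell by 0.82 (SE 0.12), and RKR1, the ligase that tags peptides on stalled ribosomes, fell by 0.46 (SE 0.10).

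The elongation factor YEF3 (-0.47, SE 0.11) and the ribosome-bound ASC1 (-0.39, SE 0.10) fell as well. MBF1, which keeps stalled ribosomes in frame, rose by 0.50 (SE 0.13, limma adjusted p = 0.0470). The calls of these 6 genes were lost without control replicate 1, and again without control replicate 2, as were most calls over all genes. Those of ASC1 and MBF1 were also lost with either CG-1521 array left out. ASC1 lost its call as well after renewed quantile normalization (limma adjusted p = 0.0563) and with arrays centred on the median (limma adjusted p = 0.051). Without CG-1521 replicate 1, and with all features fitted together, the list had 2 lower calls and 0 higher. STM1, DOM34 and HBS1 were chosen after their values were seen, because they hold and release idle ribosomes. STM1, which clamps idle ribosomes, had a difference of -0.39 (SE 0.11, limma adjusted p = 0.0563). The splitting factors DOM34 (0.34, SE 0.14, limma adjusted p = 0.135) and HBS1 (0.10, SE 0.11, limma adjusted p = 0.505) were not called either. Without CG-1521 replicate 2, STM1 and DOM34 passed (limma adjusted p = 0.0325 and 0.0330). STM1 was also called lower with an intensity trend (limma adjusted p = 0.00983) and after renewed quantile normalization (limma adjusted p = 0.0448).

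On chromosome X the genes on either side of LSO1 moved by far less than LSO1 did. That each rose by less follows from choosing LSO1 as the largest rise. LSO1 is read from the C strand and POL31, a DNA polymerase subunit, from the W strand, so that their 5′ ends face each other. POL31 lay at 10.11 and 9.98 in the controls and at 10.70 and 10.27 with CG-1521. Its groups did not overlap, and the difference of 0.44 (95% interval -0.02 to 0.90, limma adjusted p = 0.121) was not called. Without CG-1521 replicate 2 the POL31 difference was 0.66 and was called (limma adjusted p = 0.0233). APL1, an adaptor subunit of vesicle transport on the other side, ends towards LSO1 and had a difference of 0.25 (limma adjusted p = 0.139).

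Of the 6 nearest neighbours of LSO1, 1 was called higher and 1 lower. MHO1, the third gene on the POL31 side, rose from 9.02 and 9.61 to 10.53 and 10.19, a difference of 1.05 (SE 0.24, limma adjusted p = 0.0365). MRX12, the third gene on the APL1 side, fell from 11.66 and 11.72 to 11.03 and 11.12 (-0.61, SE 0.10, limma adjusted p = 0.0189). Both calls were lost when either control array was left out, as were most calls over all genes. That of MHO1 was also lost without CG-1521 replicate 1 (difference 0.88) and with all features fitted together (limma adjusted p = 0.0779). SAG1, the alpha-cell agglutinin (0.06), and SUI2, the alpha subunit of translation factor eIF2 (-0.23), were not called. A call in 2 of 6 genes compares with the 29.7% called overall.

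On chromosome VII, LSO2 likewise faces a W-strand gene, PSD2, a phosphatidylserine decarboxylase. PSD2 lay at 10.56 and 10.70 in the controls and at 10.96 and 10.62 with CG-1521, a difference of 0.16 (limma adjusted p = 0.446). As for LSO2, replicate 1 of CG-1521 was the highest of the 4 arrays and control replicate 2 came next. Of the 6 neighbours of LSO2, 5 were measured, 0 were called by limma, and 0 had an unadjusted p under 0.05, the smallest being 0.160. Their differences were -0.19 for PUS6, a tRNA pseudouridine synthase, 0.16 for CLC1, the clathrin light chain, -0.07 for MSM1, the mitochondrial methionyl-tRNA synthetase, and -0.05 for YIP1, a vesicle protein. PEX35 was not analysed here.

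**Figure D4:**
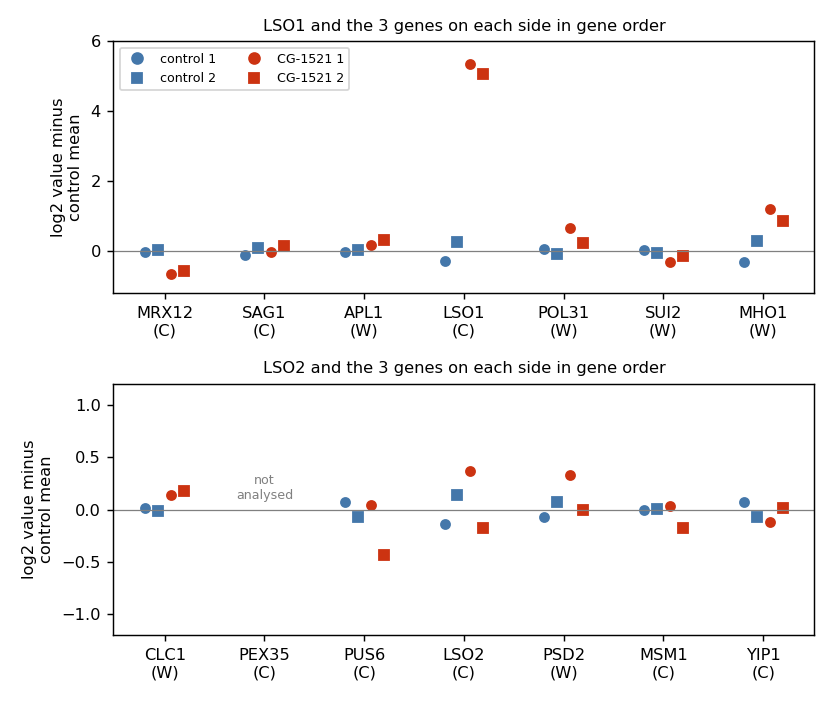
Log2 value of each array minus the gene's control mean, for LSO1 (top) and LSO2 (bottom) and the 3 genes on each side in gene order, with the coding strand (W or C) under each name, circles for replicate 1 and squares for replicate 2. In the top panel the treated arrays of LSO1, chosen as the largest rise of all genes, lie far above those of its neighbours. In the bottom panel, which has a narrower axis, LSO2 and its neighbours scatter around 0.

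The genes whose values over the 4 arrays came closest to those of LSO1 were FIT1, MPC3, TMA10, RTC3 and HSP42. Likeness was measured as the Euclidean distance between values centred on each gene's mean, which was 1.62 for FIT1 and 2.34 for HSP42, the fifth, against a median of 5.27 over all genes. Since LSO1 changed most, nearness on this measure mainly picks other large rises. FIT1 was the 1 gene of the iron regulon list among them.

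TMA10, a ribosome-associated protein, rose from 7.22 and 7.71 to 11.25 and 10.54. RTC3 went from 8.01 and 8.54 to 12.34 and 11.07. HSP42, a small heat shock protein, went from 8.71 and 8.85 to 12.02 and 11.34. In MPC3, TMA10, RTC3 and HSP42, as in LSO1, CG-1521 replicate 1 was the higher treated array, and in FIT1 it was the lower one. The calls of MPC3 and RTC3 were lost when either control array was left out, as were most calls over all genes.

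**Figure D5:**
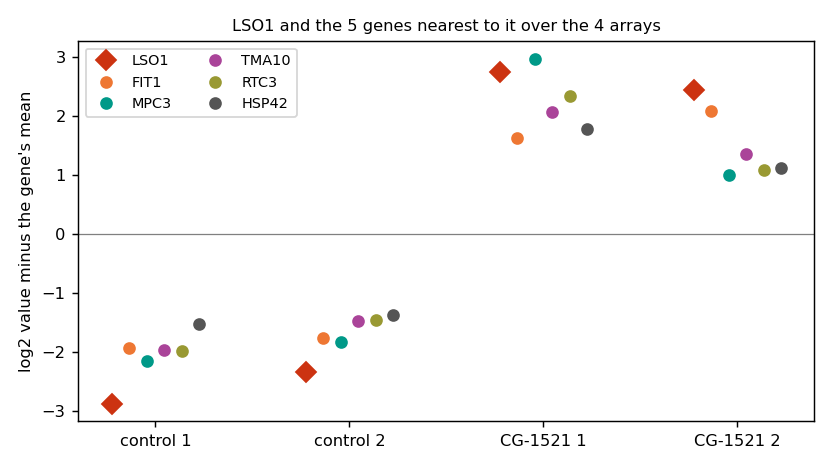
Log2 value minus the gene's own mean over the 4 arrays for LSO1 (diamonds) and the 5 genes nearest to it by Euclidean distance (circles), with 1 group of points per array. All 6 genes are below 0 in both controls and above 0 in both CG-1521 arrays, and FIT1 is the gene among them whose replicate 2 exceeds replicate 1 with CG-1521.

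With size removed, by scaling each centred profile to unit length, the nearest of the 418 other genes that were called with an absolute difference of at least 1 were GLK1, FMP23, SDS24, PDR10 and STF1. Of the 418 genes, 180 fell with CG-1521. All 5 nearest genes shared with LSO1 a somewhat higher control replicate 2 and a somewhat higher CG-1521 replicate 1, which nearness on this measure selects for. GLK1, glucokinase, went from 8.89 and 9.19 to 11.72 and 11.51, and FMP23 from 7.32 and 7.51 to 9.62 and 9.55. SDS24 rose by 1.68, PDR10, a multidrug transporter of the membrane, by 1.30, and STF1, a regulator of the mitochondrial ATP synthase, by 1.79. The PDR10 call was lost when either control array was left out, as were most calls over all genes. None of these 5 genes is in the iron regulon list. That list supplies 15 of the 418 genes compared, so its absence among 5 says little. On the first measure, which keeps size, the called gene nearest to LSO2 was YPL150W, at a distance of 0.45.

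LSO1 and LSO2 both carry locus tags with a letter suffix, given to genes placed between already numbered ones, many of them short. Of 242 other genes with such a tag, 45 were called higher, 25 lower and 172 were not called, a share of 28.9% against 29.7% of all genes. By direction, 18.6% of them were higher against 12.9% of all genes, and 25 of the 242 were lower against 16.8% of all genes. Their median difference was 0.16, 24 rose by at least 1 and 10 fell by at least 1. No other gene of this kind came near the LSO1 rise, and the largest was 1.97, that of YOL166W-A.

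YOL166W-A went from 4.04 and 4.08 to 5.90 and 6.16, but its probeset carries a suffix for shared probes. STF1 rose by 1.79, from 9.62 and 9.78 to 11.58 and 11.39. YHL048C-A rose by 1.73 and YNL277W-A by 1.68. The YNL277W-A call was lost when either control array was left out, as were most calls over all genes. YOR008C-A fell by 2.09, from 6.56 and 6.31 to 4.53 and 4.16, the largest absolute change among them. Calls of genes of this kind dropped steeply when either control array was left out, as calls over all genes did. Higher calls were more numerous without CG-1521 replicate 2, again as over all genes.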

How the data were processed

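The deposited table held log2 values for 10928 probesets on 4 arrays, made by the authors with Affymetrix Expression Console and RMA, per the submitters' processing notes. Its settings are not given in the sources used here. RMA's quantile step hides any change of all transcripts in 1 direction. Platform annotation gave 1 gene symbol to 7244 probesets, several to 1 and none to 3683. By gene identifier, 5498 probesets were assigned to S. cerevisiae genes in R64, which served only for names and gene order. For 47 genes with several probesets the one with the highest mean was kept, leaving 5449.

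Groups came from the sample titles. Group differences were tested with lmFit and eBayes of limma 3.58.1 (R 4.3.3) at default settings without a replicate block, with two-sided p-values, Benjamini-Hochberg adjustment over the 5449 genes and a threshold of 0.05. With 2 residual degrees of freedom, the number of arrays limits precision. The procedure was tested on simulated data. The members and lists were chosen with earlier results of these data known. Named by rule were neighbours, nearest profiles, regulators, up to 6 genes per list by smallest p, further called members and the 5 largest changes among suffixed locus tags. That suffix stood in for protein length, which was not used here. ICY2 was matched as ATG41.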

Additional observations from a re-analysis of the deposited data

How the results depend on the processing

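The LSO1 difference ran from 4.94 without control replicate 1 to 5.48 without control replicate 2 over the 12 alternatives. Most of these could not have moved it beyond the spread between replicates. Other variance models leave the difference as it is, and a left-out array shifts it by less than that spread by construction. Renewed quantile normalization gave 5.21 and centring arrays on the median 5.23. LSO2 was called in none of the 12 alternatives. Its difference turned negative without control replicate 1 (-0.04) and without CG-1521 replicate 1 (-0.18), and its range over the left-out arrays was -0.18 to 0.37. Counts of calls moved most. Over all genes the lowest counts came when a control array was left out, so a call lost there is not particular to a gene. Over all genes 703 were higher and 917 lower. Fitting all features together gave 334 and 444, and leaving out single arrays gave 50 to 1001 and 16 to 1133.

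With left-out arrays, the iron regulon list had 7 to 21 higher and 0 to 2 lower, the ribosome list 0 to 2 and 0 to 6, and suffixed locus tags 3 to 70 and 1 to 34. With all features together the iron regulon list had 0 lower, the ribosome list 0 higher and 2 lower, and suffixed tags 26 and 9. With an intensity trend 8 ribosome genes were lower.

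The labels number replicates in both groups without saying that a number marks a shared day. Same-numbered arrays deviated in opposite directions (correlation across genes -0.263), and the replicate block gave 369 higher and 450 lower genes, 0 lower in the iron regulon list, 0 higher and 2 lower in the ribosome list and 13 lower suffixed tags. Under that block the calls of YAP5, BOL2, GRX4, MHO1 and MRX12 were also lost (limma adjusted p = 0.0672, 0.0619, 0.0530, 0.0653 and 0.0541), as were those of SMF3, FRE4, RKR1, YEF3, ASC1 and MBF1. With crossed numbers as a block, chosen after seeing the data, 842 were higher and 978 lower.

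Of 47 other genes followed, 32 were called, and 15 of these kept the call in every alternative, among them FIT1, HMX1, TMA10, HSP42 and GLK1. Uncalled differences near 0 changed sign when 1 array was left out for SAG1, GRX3, PUS6, PSD2, MSM1 and YIP1, and for SAG1 also after renewed quantile normalization (-0.0022). Ranges over left-out arrays were -0.0364 to 0.154 for SAG1, -0.0818 to 0.108 for GRX3, -0.429 to 0.0421 for PUS6, -0.0055 to 0.333 for PSD2, -0.173 to 0.0303 for MSM1 and -0.128 to 0.0221 for YIP1.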
